A study of Mus musculus with 6 samples.

Results

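The glucocorticoid receptor and 9 of its targets were followed in C3H10T1/2 cells, a mouse mesenchymal cell line with the capacity to become bone-, fat- or muscle-forming cells. The 10 genes, taken by symbol, were Nr3c1, Hsd11b1, Fkbp5, Tsc22d3, Sgk1, Per1, Klf9, Errfi1, Zbtb16 and Dusp1, of 55401 genes in the count table. RNA was sequenced from cells carrying a control short hairpin RNA (shControl), 1 against Nfib (shNFIB) or 1 against Kmt2a, which encodes MLL1 (shMLL1). Each line was grown to confluence without inducers (day 0) or kept for 7 days in osteogenic medium (day 7). To make this medium, dexamethasone, a synthetic glucocorticoid, was added at 0.1 µM, β-glycerophosphate at 20 mM and a phosphate ester of ascorbic acid at 100 µg/ml, so time, confluence and the 3 additives cannot be told apart in a comparison of days. The 6 conditions had 1 library each, without replicate cultures, so no difference between single conditions could be checked against a replicate, and whether a line was a clone or a pool is not given in the sources used here.

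The glucocorticoid receptor, encoded by Nr3c1, waits in the cytoplasm in a complex of chaperones until a glucocorticoid binds it. It then enters the nucleus, binds DNA as a dimer and raises or lowers the transcription of its targets. Several of the induced targets act back on the pathway or on other signals, and glucocorticoids are a standard component of media that drive mesenchymal cells towards bone or fat.

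Totals lay between 21608680 and 34774066 counts per library, and values below are counts per 1000000 after scaling by the trimmed mean of M-values (CPM). A count of 0 allows a level of up to 0.0939 to 0.123 CPM, by a limit of 3 counts. Nfib was at 35.3 and 8.15 CPM in the shNFIB libraries of day 0 and day 7, against 116 and 83.5 in shControl. Kmt2a was at 30.9 and 34.8 CPM in the shMLL1 libraries, against 74.7 and 66.3 in shControl. Over both days neither reduction passed the test of line differences, with adjusted p of 0.140 for Nfib and 0.149 for Kmt2a. Each of the 10 mesenchymal markers had counts in every library, with summed levels of 6701 to 17103 CPM. Blood and endothelial markers summed to at most 8.48 CPM and myogenic markers to at most 2.72 CPM.

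Between day 0 and day 7, 7 of the 10 genes rose and the receptor gene fell, in a fit over the 6 libraries with the line as a block (edgeR's quasi-likelihood test, called at an adjusted p under 0.05 over 16742 genes). The transcript of the receptor went down while Fkbp5, Tsc22d3, Sgk1, Per1, Klf9, Errfi1 and Zbtb16 went up, by 3.99-fold for Per1 and 15.0-fold for Fkbp5. Dusp1 and Hsd11b1 were not called. Of all genes tested, 16.8% were called higher at day 7 and 16.5% lower. The median log2 fold change of the 10 genes was 2.69, the same with Zbtb16 set at its bound, beside 0.0080 over all genes tested. The 3 day 7 levels did not overlap the 3 day 0 levels for the same 7 genes, all higher, nor for Nr3c1, which was lower. Without overlap, 23.7% of all genes tested were higher at day 7 and 20.9% lower.

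**Figure D1:**
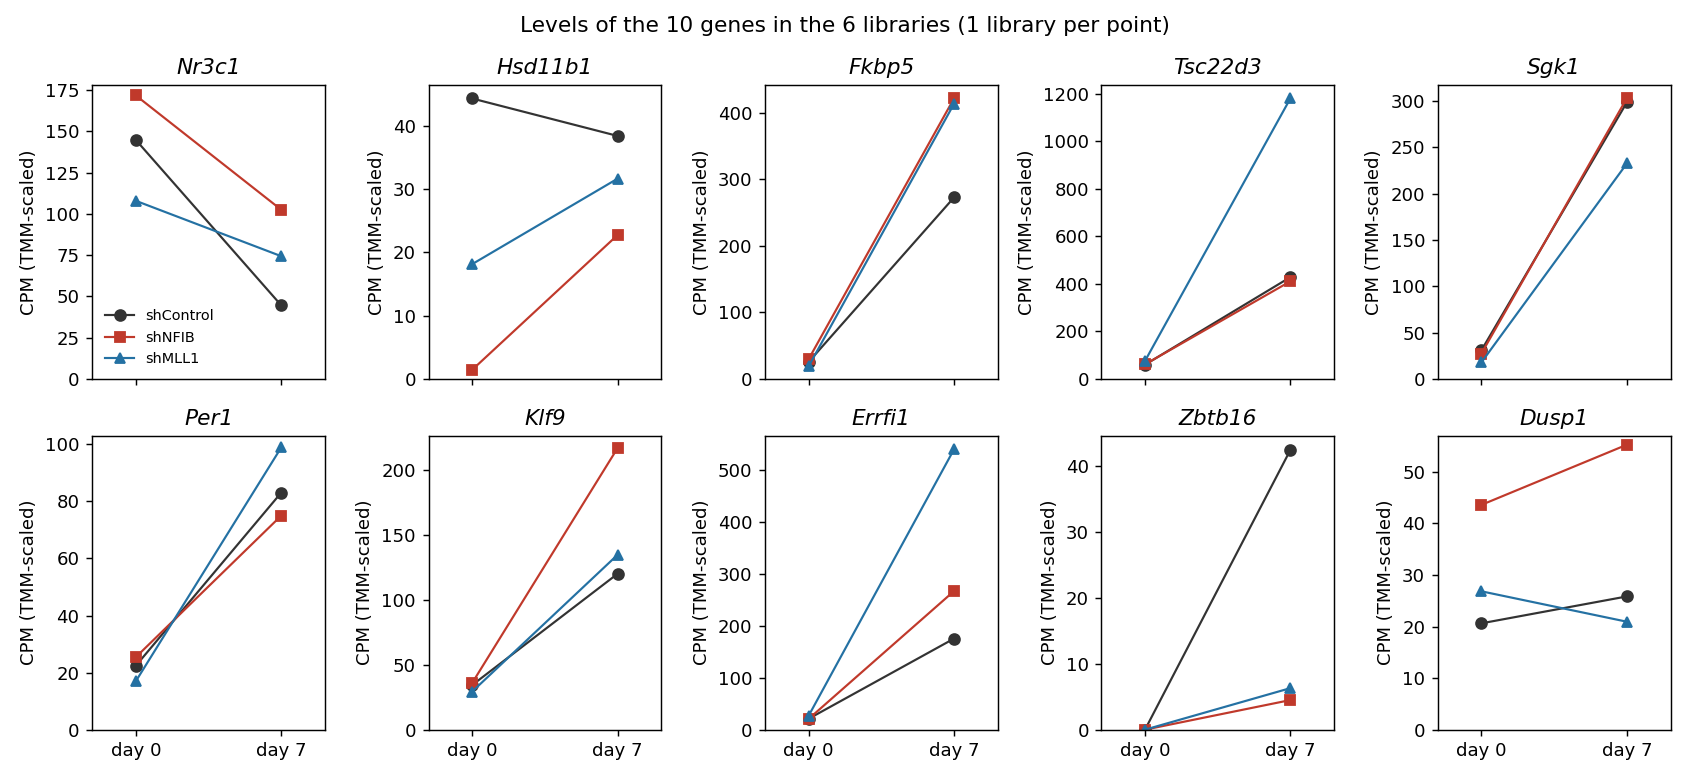
Levels of the 10 genes, in CPM on a linear axis that starts at 0, at day 0 and day 7 in shControl (black circles), shNFIB (red squares) and shMLL1 (blue triangles). Each point is 1 library and lines join the libraries of 1 cell line. Nr3c1 was lower at day 7 in each line, 7 targets were higher in each line, and Hsd11b1 and Dusp1 moved in different directions.

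The receptor gene Nr3c1 (ENSMUSG00000024431) lies on the minus strand at chr18:39410545-39519421 of GRCm38. Its level at day 0 was 145 CPM in shControl, 172 in shNFIB and 108 in shMLL1. At day 7 it was 44.5 CPM in shControl, 102 in shNFIB and 74.3 in shMLL1. Thus the lowest day 0 library lay just above the highest day 7 library. In the fit over lines the log2 fold change was -0.99 ± 0.26 (SE, n = 3 libraries a day), with an adjusted p of 0.0284. This call rests on the shControl line. Without it the log2 fold change was -0.69 and the adjusted p 0.179.

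The fall of Nr3c1 was 3.25-fold in shControl, 1.68-fold in shNFIB and 1.45-fold in shMLL1. Its log2 ratio of day 7 to day 0 was -1.70 in shControl, with a 95% counting interval (Clopper-Pearson) of -1.79 to -1.61. It was -0.75 in shNFIB (-0.81 to -0.68) and -0.54 in shMLL1 (-0.62 to -0.45). Such intervals reflect counting error alone, because each is computed from the counts of a single pair of libraries. They also treat reads as independent molecules. The fit estimated a larger spread between libraries, a biological coefficient of variation of 0.281.

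The log2 response was 0.96 less negative in shNFIB than in shControl (0.85 to 1.06) and 1.16 less negative in shMLL1 (1.04 to 1.28). The difference between lines could not be tested, because 1 library a condition leaves no error for it. From highest to lowest, Nr3c1 levels ran from shNFIB, shControl and shMLL1 at day 0 to shNFIB, shMLL1 and shControl at day 7. The closest neighbours were shMLL1 at day 0 and shNFIB at day 7, whose ratio had a counting interval of 0.0025 to 0.15 on the log2 scale.

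On the scale of CPM per kilobase of exon, which lets genes be compared, Nr3c1 was the most abundant of the 10 transcripts in shControl at day 0, at 18.8, and the least abundant at day 7, at 5.79. In shNFIB it was also first at day 0, at 22.3 CPM per kilobase. In shMLL1 it stood at 14.0, below Tsc22d3 at 17.3. At day 7, Tsc22d3 was first in each line, at 98.6 CPM per kilobase in shControl, 94.6 in shNFIB and 272 in shMLL1.

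Transcripts whose pattern over the 6 libraries was most like that of Nr3c1 were Arhgap10, Lrrc20, Macrod2, Ext1 and Usp12. Likeness was the root mean square difference of mean-centred log2 CPM, between 0.129 for Arhgap10 and 0.150 for Usp12, while Nr3c1 itself spanned 1.95 log2 units. Nr3c2, the mineralocorticoid receptor, which also binds glucocorticoids, was at a low level, between 1.38 and 7.54 CPM, and was not called between days. Pgr, the progesterone receptor, had no counts in the 6 libraries.

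Hsd11b1 (chr1:193221634-193264075, minus strand) encodes the enzyme that regenerates active glucocorticoid inside cells from the inactive keto form. Its level was 44.3 CPM in shControl at day 0 and 38.4 at day 7. In shNFIB it was 1.43 CPM at day 0, from 45 counts, and 22.7 at day 7. In shMLL1 it was 18.1 CPM at day 0 and 31.6 at day 7. Both shControl libraries were thus above the 4 knockdown libraries, and shNFIB at day 0 stood far below the other 5.

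The log2 ratio of day 7 to day 0 for Hsd11b1 was -0.21 in shControl (-0.32 to -0.09), 3.996 in shNFIB (3.56 to 4.47) and 0.80 in shMLL1 (0.64 to 0.96). Over the 3 lines the log2 fold change was 1.34 ± 0.74 (SE, n = 3 libraries a day), with an adjusted p of 0.194. At day 0, Hsd11b1 was 31.1-fold lower in shNFIB than in shControl and 2.44-fold lower in shMLL1. At day 7 the corresponding reductions were 1.69-fold and 1.21-fold. The summed level of 7 adipocyte markers at day 0 was 51.0 CPM in shControl, 63.5 in shNFIB and 18.2 in shMLL1. In each comparison with shControl, 3 of them had at least 10 counts in either library. Of these, none was higher and 1 lower beyond 2-fold in shNFIB, beside 7.36% and 6.33% of all genes. In shMLL1 none was higher and 2 were lower, beside 11.1% and 9.4%. A part of such cells in the Hsd11b1 levels was not tested.

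Of the other genes that set access of glucocorticoid to the receptor, H6pd and Hsd11b2 were called higher and Abcb1b lower. H6pd supplies the reduced cofactor that the Hsd11b1 enzyme uses. It rose from 71.2, 72.3 and 47.7 CPM at day 0 in shControl, shNFIB and shMLL1 to 158, 256 and 253 CPM at day 7, a log2 fold change of 1.79 ± 0.28 (adjusted p = 0.0047). Hsd11b2, whose enzyme inactivates glucocorticoid, was called from at most 25 counts a library and no more than 1.02 CPM. Abcb1b, a drug efflux transporter that exports steroids, fell by 0.95 ± 0.20 on the log2 scale (adjusted p = 0.0136).

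Of 12 chaperones and cochaperones of the complex that holds the receptor, 2 were called higher and 5 lower, beside 16.8% and 16.5% of all genes, with a median log2 fold change of -0.63. The 3 largest falls were those of Stip1, which passes clients from Hsp70 to Hsp90 (-1.41 ± 0.28, adjusted p = 0.0111), and of Hsp90aa1 (-1.126 ± 0.31, adjusted p = 0.0302) and Hsp90ab1 (-1.117 ± 0.31, adjusted p = 0.0329), the cytosolic Hsp90 genes. Without the shControl line none of the 12 was called lower, and without the shMLL1 line 2 were. Ppid, an immunophilin of the complex, rose by a log2 fold change of 0.76 ± 0.20 (adjusted p = 0.0292). Of 10 coregulators of nuclear receptors, 1 was called higher and 1 lower, beside 16.8% and 16.5% of all genes. They were Ncoa3 (0.64 ± 0.20, adjusted p = 0.0471) and Smarca4 (-0.73 ± 0.21, adjusted p = 0.0366). With 1 line left out no coregulator was called higher. Without the shMLL1 line 2 were called lower, and none was without the shControl or the shNFIB line.

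Fkbp5 (chr17:28399094-28517527, minus strand) encodes the immunophilin that lowers the affinity of the receptor complex for hormone, and its induction is a standard readout of receptor activity. At day 0 its level was 25.4 CPM in shControl, 29.5 in shNFIB and 18.8 in shMLL1. At day 7 it was 273 CPM in shControl, 422 in shNFIB and 414 in shMLL1. These levels were far above those of day 0, and at day 7 the knockdown libraries were both above shControl and within counting error of each other. The log2 fold change over the lines was 3.91 ± 0.28 (SE, n = 3 libraries a day), with an adjusted p of 4.9e-04. The related Fkbp4, which competes with Fkbp5 in the complex and favours hormone binding, moved the other way, at -1.005 ± 0.24 (adjusted p = 0.0197).

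Within lines Fkbp5 rose 10.8-fold in shControl, 14.3-fold in shNFIB and 22.0-fold in shMLL1. The log2 response was larger than in shControl by 0.41 in shNFIB (counting interval 0.27 to 0.55) and by 1.03 in shMLL1 (0.87 to 1.19). The 5 transcripts most like Fkbp5 over the 6 libraries were Rgs2, Lpin3, Maf, Gm27514 and Dhrs3, with root mean square differences of 0.205 for Rgs2 to 0.334 for Dhrs3 on the log2 scale. Fkbp5 spanned 4.48 log2 units. Gm27514 is annotated as a miRNA gene, and its counts may belong to an overlapping transcript.

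Tsc22d3 (chrX:140539528-140600659, minus strand) encodes GILZ, a leucine zipper protein that restrains NF-κB and AP-1. Its day 0 levels were 59.5 CPM in shControl, 60.8 in shNFIB and 75.3 in shMLL1, and its day 7 levels were 428, 411 and 1181 CPM. The shMLL1 library of day 7 stood apart, while shControl and shNFIB were close to each other on both days. The log2 fold change over the lines was 3.19 ± 0.32, with an adjusted p of 0.0010. Within lines it rose 7.20-fold in shControl, 6.76-fold in shNFIB and 15.7-fold in shMLL1. The log2 response in shMLL1 exceeded that in shControl by 1.123 (1.03 to 1.22), and in shNFIB the difference was -0.09 (-0.19 to 0.0072).

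Errfi1 (chr4:150853919-150868892, plus strand) encodes MIG6, an inhibitor of the epidermal growth factor receptor. It was at 21.0, 20.6 and 26.7 CPM at day 0 in shControl, shNFIB and shMLL1, and at 175, 267 and 539 CPM at day 7. Both knockdown libraries exceeded shControl at day 7, with shMLL1 highest. Over the lines it rose by 3.70 ± 0.30 on the log2 scale (adjusted p = 6.5e-04). The log2 response exceeded that of shControl by 0.63 in shNFIB (0.47 to 0.79) and by 1.28 in shMLL1 (1.121 to 1.43).

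Sgk1 (chr10:21882184-21999903, plus strand) encodes a kinase that regulates ion channels and cell survival. Its day 0 levels were 30.8 CPM in shControl, 27.3 in shNFIB and 17.8 in shMLL1. At day 7 they were 299, 303 and 233 CPM, and the libraries of shControl and shNFIB differed by less than counting error. This was a rise of 3.48 ± 0.21 on the log2 scale (adjusted p = 4.4e-04). Its rise varied least between lines among the genes that rose by over 5-fold in the fit, from 9.69-fold in shControl to 13.1-fold in shMLL1.

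The promoter of Sgk1 carried the one full glucocorticoid response element found among these genes. The receptor dimer binds an inverted repeat of GAACA with 3 bases between the arms, GAACANNNTGTTC, and both strands were searched in RefSeq promoter windows of GRCm38.p6, from 250 bases before to 50 bases after each start site. The full element occurred in 19 of 32851 windows (0.0578%). A relaxed form that leaves the second base of each arm open, GNACANNNTGTNC, occurred in 156 windows (0.475%), the full matches among them. A single arm, GAACA, occurred in 41.7% of windows. Entries were found for 8 of the 10 genes, with 17 windows, and none for Nr3c1 or Zbtb16. The Sgk1 match lay 188 to 176 bases before the start site whose window begins at chr10:21993640. The 250 bases before that site, at chr10:21993640-21993889 on the plus strand, are shown with the element in capitals.
Sgk1: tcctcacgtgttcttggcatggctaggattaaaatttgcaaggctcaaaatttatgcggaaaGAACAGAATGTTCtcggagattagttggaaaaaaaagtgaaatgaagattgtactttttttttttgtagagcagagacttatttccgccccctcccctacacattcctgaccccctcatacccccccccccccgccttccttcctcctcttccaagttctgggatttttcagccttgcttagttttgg

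No other window of these genes held the relaxed form, and single arms lay in 6 windows, all of Sgk1 and Tsc22d3. Of 26 other genes known to be induced by glucocorticoids, 21 had an entry, with 24 windows, and 4 held a relaxed match, shown here in capitals with 10 bases on either side for comparison with the Sgk1 element. They were Txnip (chr3:96557775-96557807, plus strand), Map3k6 (chr4:133240627-133240659, plus strand), Mt1 (chr8:94178985-94179017, plus strand) and Fam107a (chr14:8309875-8309907, minus strand).
Txnip: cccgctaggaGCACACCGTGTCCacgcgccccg
Map3k6: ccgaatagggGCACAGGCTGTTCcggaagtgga
Mt1: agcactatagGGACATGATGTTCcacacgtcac
Fam107a: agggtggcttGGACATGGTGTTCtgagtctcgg
A match is a description of letters, not of binding, and elements further from the start site were not searched.

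Per1 (chr11:69095217-69109960, plus strand) encodes a repressor of the circadian clock and is a direct glucocorticoid target. It rose from 22.4, 25.4 and 17.0 CPM at day 0 in shControl, shNFIB and shMLL1 to 83.1, 75.0 and 98.9 CPM at day 7. Levels within each day were close. The log2 fold change was 2.00 ± 0.24, with an adjusted p of 0.0019. The response was 0.33 smaller than in shControl on the log2 scale in shNFIB (-0.50 to -0.16 as a difference) and 0.65 larger in shMLL1 (0.47 to 0.83).

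Of 10 tested clock genes that partner Per1, none was called higher by edgeR and 3 were called lower, beside 16.8% and 16.5% of all genes, and the median log2 fold change was -0.46. At an unadjusted p under 0.05, in DESeq2, without a filter and without the shNFIB line, 1 was higher, and without the shMLL1 line 5 were lower. The falls were those of Nr1d2 (-2.06 ± 0.19, adjusted p = 7.8e-04), Dbp (-1.96 ± 0.30, adjusted p = 0.0047) and Nr1d1 (-0.79 ± 0.20, adjusted p = 0.0246). Nr1d1 and Nr1d2 encode the REV-ERB repressors and Dbp an output factor of the clock. Per2 had a log2 fold change of 0.79 ± 0.30 and was not called (adjusted p = 0.0814). The hour of harvest is not given in the sources used here.

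Klf9 (chr19:23141226-23168134, plus strand) encodes a Krüppel-like repressor. Its day 0 levels were 34.3 CPM in shControl, 35.9 in shNFIB and 29.3 in shMLL1, and its day 7 levels were 120, 217 and 135 CPM. The shNFIB library was the highest at day 7. Over the lines it rose by 2.199 ± 0.22 on the log2 scale (adjusted p = 0.0010). The log2 response exceeded that of shControl by 0.79 in shNFIB (0.65 to 0.92) and by 0.39 in shMLL1 (0.25 to 0.54).

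Zbtb16 (chr9:48654297-48836222, minus strand) encodes PLZF, a zinc finger repressor induced late by glucocorticoids and known from osteogenic cultures. No count was found in the 3 day 0 libraries. At day 7 it had 1296 counts (42.5 CPM) in shControl, 133 (4.50 CPM) in shNFIB and 154 (6.31 CPM) in shMLL1. Zbtb16 was thus induced in each line and far higher in shControl than in either knockdown. Against a floor of 3 counts per day 0 library, the rise was at least 453-fold in shControl, at least 47.4-fold in shNFIB and at least 63.5-fold in shMLL1. The adjusted p of the day effect was 6.7e-04.

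At day 7, Zbtb16 was 9.45-fold lower in shNFIB than in shControl, a log2 ratio of -3.24 (counting interval -3.51 to -2.98), and 6.74-fold lower in shMLL1, a log2 ratio of -2.75 (-3.00 to -2.51). In the fit, where the line effect of Zbtb16 rests on its day 7 libraries alone, neither reduction was called, with adjusted p of 0.117 and 0.183. At day 7, most differentiated-cell markers with at least 10 counts in either library were lower beyond 2-fold in the knockdown libraries than in shControl. A marker that reached 10 counts in shControl alone could not be higher beyond 2-fold, as with Plin1 and Cidec in shNFIB. Of 6 adipocyte markers, 4 were lower and 1 higher in shNFIB, beside 13.3% and 8.08% of all genes. In shMLL1 5 were lower and none higher, beside 7.16% and 8.59%. Between days, 4 of 6 tested were called higher, beside 16.8% of all genes. Without the shControl line 3 were tested and none was called higher, beside 1004 of 15937 genes. The summed level of 7 adipocyte markers at day 7 was 130 CPM in shControl, 93.4 in shNFIB and 30.2 in shMLL1. Plin1 and Cidec, which coat lipid droplets, had no counts at day 0 and reached 472 and 681 counts in shControl at day 7. They had 9 and 5 counts in the shNFIB library of that day and 28 and 17 in that of shMLL1, while Adipoq had at most 1 count in any library. Of 4 osteoblast markers tested between days, 1, Alpl, was called higher, beside 16.8% of all genes. Of 5 with enough counts at day 7, 4 were lower and none higher beyond 2-fold in each knockdown line. Beside these stand 13.3% of all genes lower and 8.08% higher in shNFIB, and 7.16% and 8.59% in shMLL1. Within each knockdown line, 3 of the 7 osteoblast markers had at least 10 counts at either day. The summed level of the 7 osteoblast markers at day 7 was 1503 CPM in shControl, 264 in shNFIB and 340 in shMLL1. Fewer cells of a type and less RNA per cell cannot be told apart in bulk RNA, and the part of these cells in the Zbtb16 levels was not tested.

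Dusp1 (chr17:26505590-26562128, minus strand) encodes a phosphatase of MAP kinases that responds within an hour to glucocorticoids and to serum alike. Its exons overlap those of Ergic1 on the other strand, and the strand setting of the counting is not given in the sources used here. Dusp1 stood at 20.6 CPM in shControl, 43.6 in shNFIB and 26.8 in shMLL1 at day 0, and at 25.8, 55.3 and 20.9 CPM at day 7. The shNFIB libraries were the highest on both days and the days overlapped. The log2 fold change by day was 0.11 ± 0.22, with an adjusted p of 0.729.

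Other immediate early genes were mixed, with 5 of 15 called higher and 1 lower, beside 16.8% and 16.5% of all genes. Egr3 (2.94 ± 0.69, adjusted p = 0.0190), Fosb (2.55 ± 0.63, adjusted p = 0.0224) and Fos (2.50 ± 0.36, adjusted p = 0.0036) had the 3 largest log2 rises, from levels of at most 1.31 CPM at day 0. Zfp36, an RNA-destabilizing protein, and Egr1 were also called higher, and Ier2 was called lower (-0.91 ± 0.24, adjusted p = 0.0284).

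**Figure D2:**
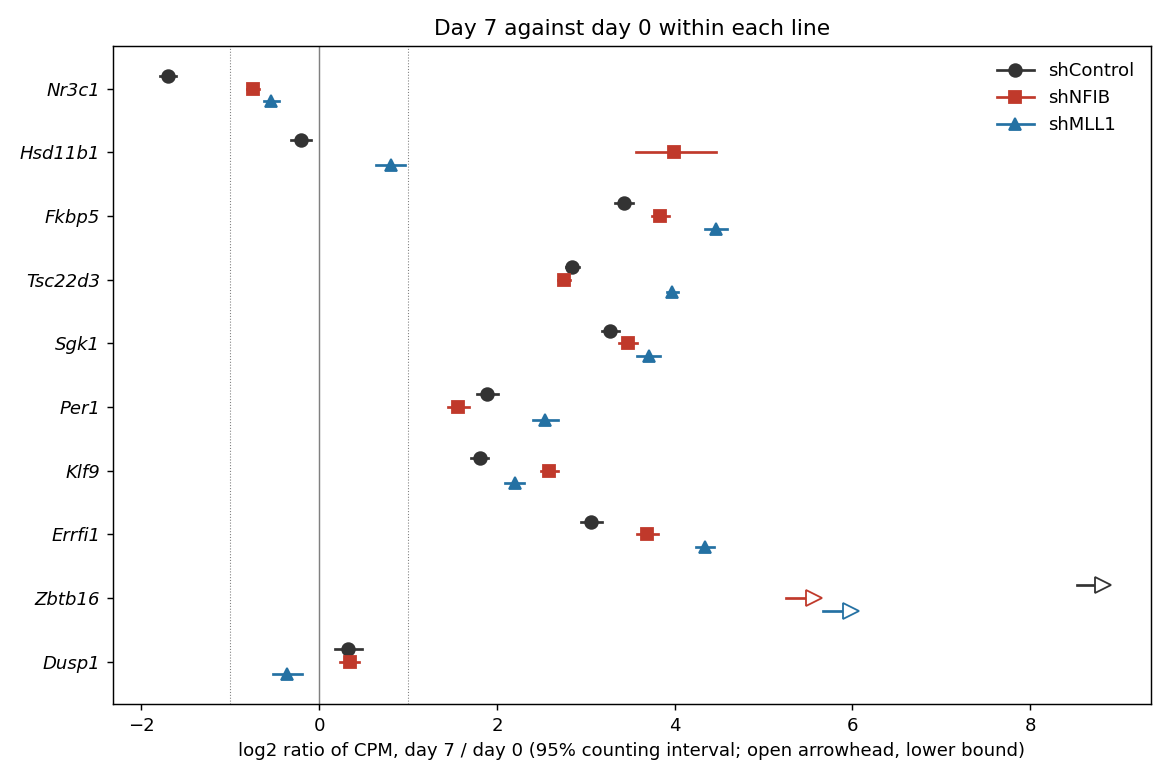
Log2 ratio of CPM at day 7 to day 0 for the 10 genes in each line, with 95% counting intervals as bars. Open arrowheads are lower bounds for Zbtb16, which had no counts at day 0, with the bar running from the lower end of its counting interval, and dotted lines mark a 2-fold change. Nr3c1 lies left of 0 in each line and 6 targets lie beyond 2-fold to the right in each line, as do the bounds of Zbtb16.

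Within each line on its own, most of the 10 genes changed beyond 2-fold. In shControl, 7 of the 10 genes were higher beyond 2-fold and 1 was lower, beside 23.0% and 14.9% of 16786 genes with at least 10 counts in either library. In shNFIB, 8 were higher and none lower, beside 16.6% and 13.9% of genes. In shMLL1, 7 were higher and none lower, beside 25.8% and 19.9%. The eighth gene in shNFIB was Hsd11b1, and Nr3c1 passed 2-fold in shControl alone.

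For 9 genes the difference of the log2 response between a knockdown line and shControl had a counting interval. In shMLL1, 8 of these intervals lay above 0 and 1, that of Dusp1, below. In shNFIB, 6 lay above 0 and 1, that of Per1, below. The share of all genes with such an interval off 0 was not computed, so these counts have no background. Zbtb16 had no interval, and with its day 0 counts set to 3 its difference was -2.83 in shMLL1 and -3.26 in shNFIB. The 6 targets that rose and had an interval all responded more in shMLL1 than in shControl by this measure, by 0.39 for Klf9 up to 1.28 for Errfi1. Responses over all genes were also wider in shMLL1 than in shControl. Their log2 ratios between the 5th and 95th percentiles ran from -2.34 to 2.88 in shMLL1 and from -1.91 to 2.57 in shControl. In shNFIB they ran from -2.07 to 2.17, so the upper end was lower than in shControl. A part of this spread in the response differences was not tested. The response differences of both knockdown lines use the same shControl libraries.

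**Figure D3:**
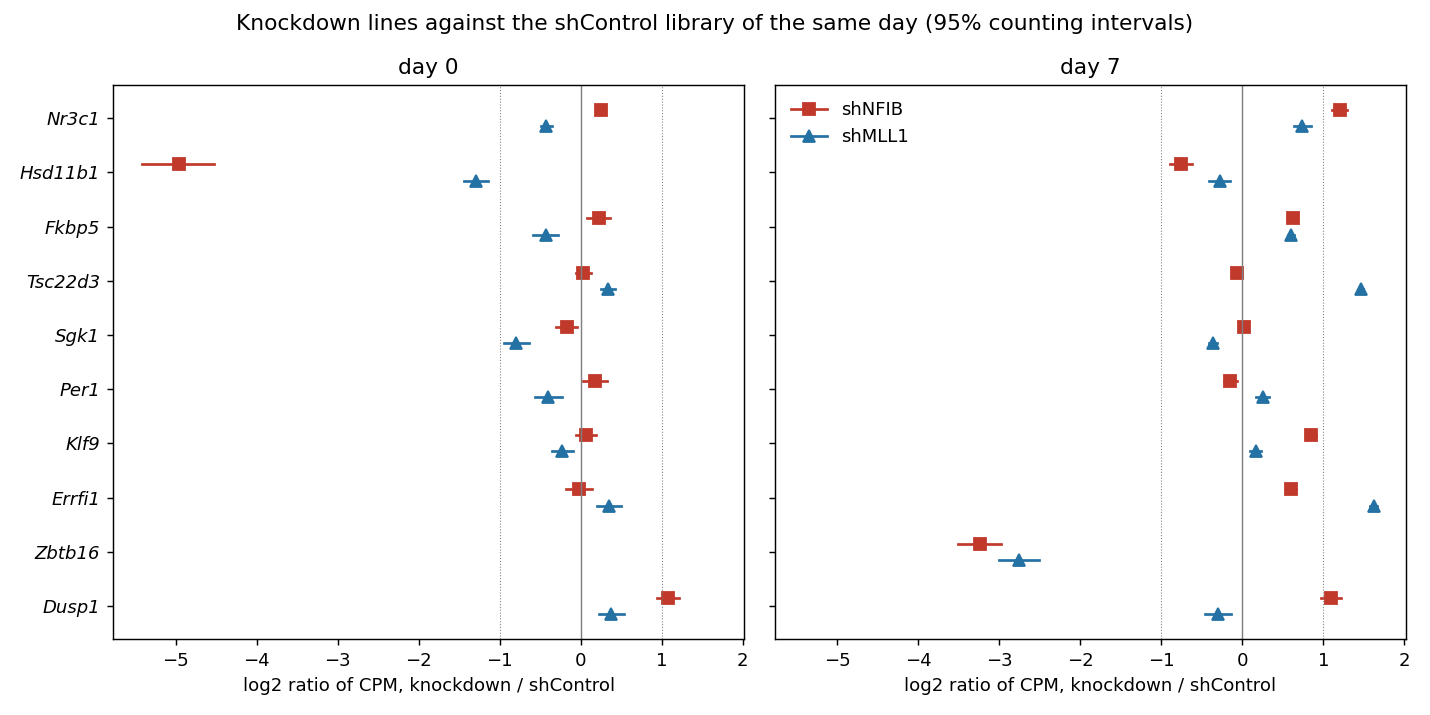
Log2 ratio of CPM in shNFIB (red squares) and shMLL1 (blue triangles) to the shControl library of the same day, at day 0 (left) and day 7 (right), with 95% counting intervals. Zbtb16 has no point at day 0, when it had no counts. Hsd11b1 at day 0 in both knockdown lines and Zbtb16 at day 7 in both lie furthest to the left, and dotted lines mark a 2-fold change.

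Between lines, few of the 10 genes passed 2-fold at either day. At day 0, of 9 genes with enough counts, Dusp1 was higher and Hsd11b1 lower in shNFIB, beside 7.36% and 6.33% of all genes. In shMLL1 none was higher and Hsd11b1 was lower, beside 11.1% and 9.4%. At day 7, Nr3c1 and Dusp1 were higher and Zbtb16 lower in shNFIB, beside 8.08% and 13.3%. In shMLL1, Tsc22d3 and Errfi1 were higher and Zbtb16 lower, beside 8.59% and 7.16%. Both knockdown lines were set against the same shControl library of each day.

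Over both days, the fit called none of the 10 genes in shNFIB or in shMLL1 against shControl. It called 0.376% of all genes in shNFIB and 0.0299% in shMLL1, so few calls were made of any gene. At an unadjusted p under 0.05 there were 2096 genes in shNFIB, 3 of the 10 among them, and 1553 in shMLL1, 4 of the 10 among them. DESeq2 called 1 of the 10 genes, Dusp1, in shNFIB and none in shMLL1. The log2 difference of Dusp1 in shNFIB was 1.09 ± 0.27, with an adjusted p of 0.176. That of Errfi1 in shMLL1 was 0.99 ± 0.34 (adjusted p = 0.418) and that of Tsc22d3 in shMLL1 0.95 ± 0.36 (adjusted p = 0.486). The shNFIB level of Dusp1 exceeded that of shControl 2.11-fold at day 0 and 2.14-fold at day 7.

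Other genes known to be induced by glucocorticoids were also mostly called higher at day 7. Their list, like the 10 genes, was chosen with earlier results of these data known. Of 25 tested from a list of 26, 17 were called higher and none lower by edgeR, beside 16.8% and 16.5% of all genes tested, and the median log2 fold change was 1.98. None was lower at an unadjusted p under 0.05 or in DESeq2, but without the shNFIB line edgeR called 1 lower. The 3 largest rises were those of Agt, the precursor of angiotensin (8.98 ± 0.68, adjusted p = 5.3e-04), Sult1a1, a sulfotransferase (8.92 ± 0.33, adjusted p = 1.6e-04), and Fam107a (7.42 ± 0.86, adjusted p = 0.0017). Agt rose from 0.501, 0.158 and 0.0331 CPM in shControl, shNFIB and shMLL1 to 85.4, 113 and 163 CPM. Sult1a1 rose from 0.282, 0.380 and 0.232 CPM to 159, 119 and 166 CPM. Fam107a rose from 8.30, 0.127 and 2.45 CPM to 515, 270 and 332 CPM. Their day 0 levels rested on as few as 1, 7 and 4 counts.

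The called genes also included Pdk4, which restrains pyruvate oxidation, Glul, glutamine synthetase, and the metallothioneins Mt1 and Mt2. The 8 tested genes that were not called included Cebpd, Lcn2, Ddit4, Anxa1, Crispld2, Foxo1 and Foxo3, and Cdkn1c was not tested, with at most 4 counts a library. With 1 line left out at a time, between 15 and 18 of the list were called higher and between 0 and 1 lower. Within lines, 16 of 25 passed 2-fold upwards in shControl, 20 in shNFIB and 19 in shMLL1, beside 23.0%, 16.6% and 25.8% of all genes. Downwards, none passed in shControl or shNFIB and 1 in shMLL1, beside 14.9%, 13.9% and 19.9%.

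**Figure D4:**
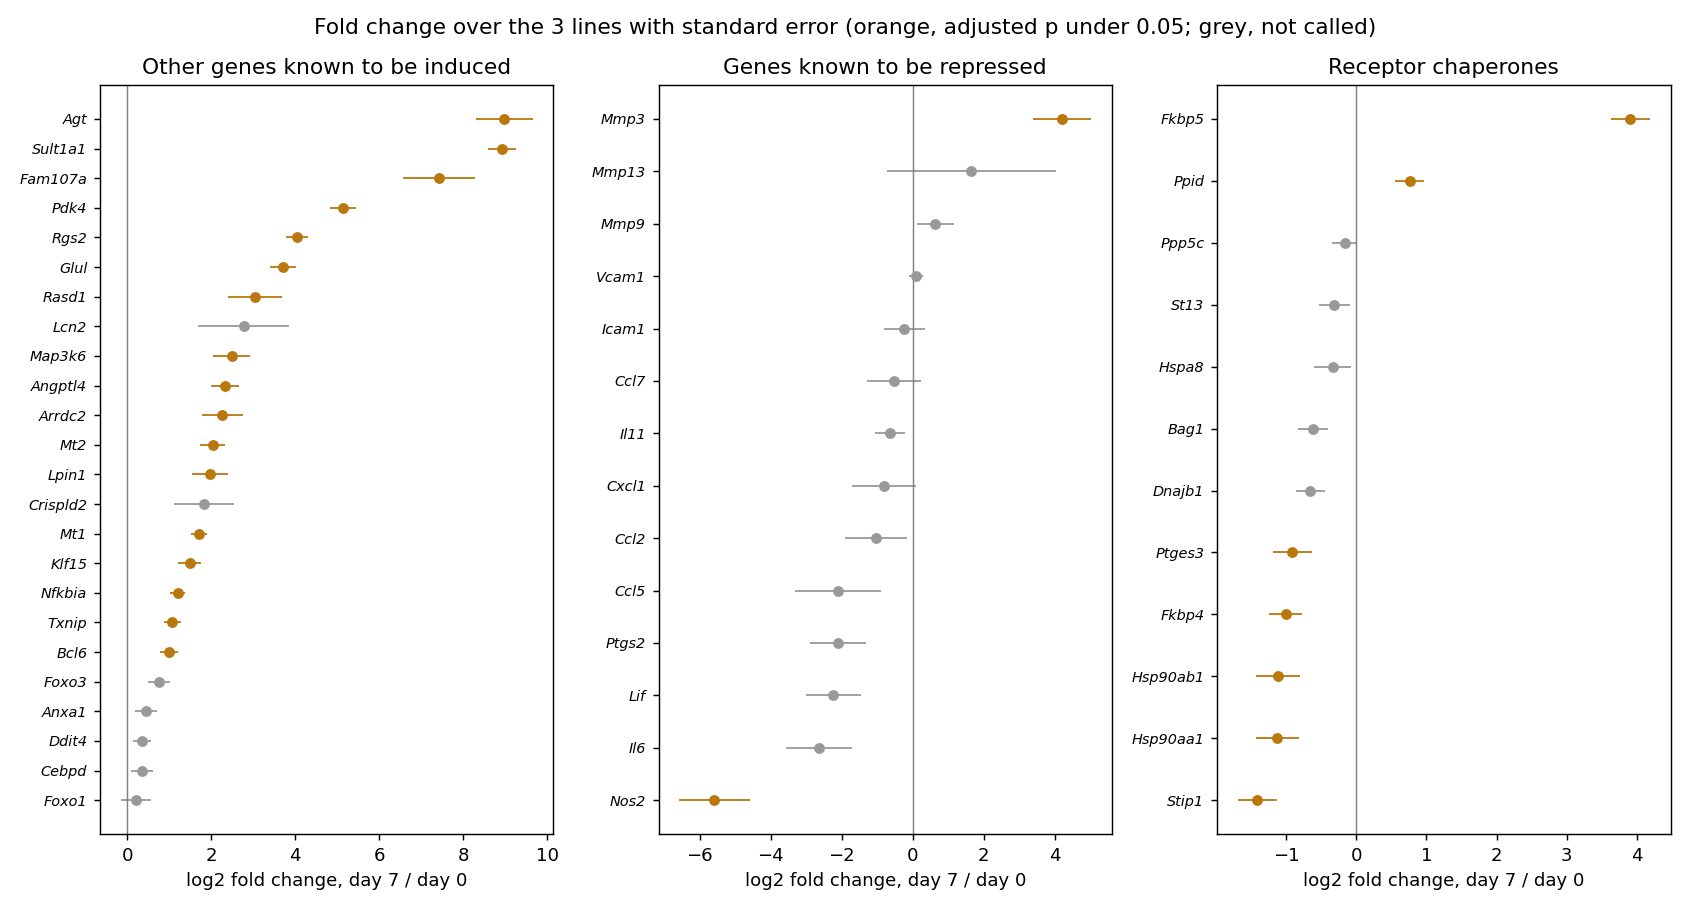
Log2 fold change of day 7 over day 0 in the fit over the 3 lines, with standard errors as bars, for other genes known to be induced by glucocorticoids (left), genes known to be repressed (middle) and receptor chaperones (right). Orange points were called at an adjusted p under 0.05 and grey points were not. Of the induced genes, 17 of 25 were called higher, with 1 of those not called left out of the plot. Of the repressed genes, 1 of 14 was called lower and 1 higher. Of all genes tested, 16.8% were called higher and 16.5% lower.

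Genes known to be repressed by glucocorticoids, mostly cytokines, chemokines and matrix proteases, were less uniform. Of 14 tested, Nos2, inducible nitric oxide synthase, was called lower (-5.59 ± 0.99, adjusted p = 0.0076) and Mmp3, a stromelysin, higher (4.21 ± 0.82, adjusted p = 0.0105), with a median of -0.72. These 2 calls stand beside 16.5% of all genes tested called lower and 16.8% higher. Without the shNFIB line 5 of the 14 were called lower. Within lines, 5 of 14 were lower and 3 higher beyond 2-fold in shControl, beside 14.9% and 23.0% of all genes. In shNFIB 1 was lower and 4 were higher, beside 13.9% and 16.6%, and in shMLL1 9 were lower and 2 higher, beside 19.9% and 25.8%. At day 0, 10 of the 14 were higher and 1 lower beyond 2-fold in shMLL1 than in shControl, beside 11.1% and 9.4% of all genes. In shNFIB, 4 of 13 were higher and 1 lower, beside 7.36% and 6.33%.

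The chemokines Ccl2 and Cxcl1, chosen after their values were seen, show the pattern in shMLL1. Ccl2 was at 117 CPM in shControl, 223 in shNFIB and 561 in shMLL1 at day 0, and at 151, 218 and 33.2 CPM at day 7. Cxcl1 was at 104, 120 and 316 CPM at day 0 and at 116, 190 and 20.4 CPM at day 7. The shMLL1 libraries were thus the highest at day 0 and the lowest at day 7 for both. Neither was called between days, with adjusted p of 0.384 for Ccl2 and 0.505 for Cxcl1.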

How the data were processed

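Per the labels, total RNA of the 6 C3H10T1/2 conditions was sequenced from TruSeq libraries. The submitters' processing notes name Trimmomatic 0.39, HISAT2 2.2.1, SAMtools 1.12 and HTSeq 0.11.1 on GRCm38 (mm10). The authors deposited a table of unnormalized read counts for Ensembl genes. The annotation release and the strand setting of the counting are not given in the sources used here. Gene positions were taken from GENCODE M21, which lists 55141 of the 55401 genes.

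Counts were fitted in edgeR 4.0.16 (R 4.3.3) with TMM factors, terms for line and day, filterByExpr and the two-sided quasi-likelihood test, with Benjamini-Hochberg adjustment over 16742 genes. The line was kept as a block because both days come from the same cells, and departures from the day means correlated between the libraries of a line, at 0.424 in shControl, 0.427 in shNFIB and 0.273 in shMLL1. P-values set a difference against the scatter of these libraries around the line and day terms. They do not cover a spread between replicate cultures, which were absent. Pairs of libraries were compared by the ratio of scaled counts, with counts under 3 set to 3, and no test. Intervals were computed with scipy 1.17.1. Steps were tested on simulated counts.

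The 10 genes and the gene lists were chosen with earlier results of these data known. All 10 genes are named, with the called genes of each list that had the 3 largest rises and falls, list genes called between lines, the hairpin targets and the 5 genes most like Nr3c1 and Fkbp5. Other genes named were chosen after their values were seen, and some genes of the lists are not reported here. Alternatives were DESeq2 1.42.0, other scalings, no filter, no block, each line left out, a 1.5-fold threshold, a prior count of 2 and thinned counts.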

Additional observations from a re-analysis of the deposited data

Results flagged for a closer look

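Hsd11b1 and Dusp1 moved in opposite directions in different lines between day 0 and day 7, and the differences between lines were not tested, since there was 1 library a condition. The log2 ratio of Hsd11b1 was -0.21 in shControl, 3.996 in shNFIB and 0.80 in shMLL1. That of Dusp1 was 0.33 in shControl and -0.36 in shMLL1.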

How the results depend on the processing

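The 7 genes called higher at day 7 were called under each alternative run, and 8 of the 10 without a filter, when Hsd11b1 was added. The call of Nr3c1 as lower was lost, giving 0 genes, with no replicate block (log2 fold change -0.94, adjusted p = 0.074), without the shControl line (-0.69, adjusted p = 0.179) and when a 2-fold change was also required. Leaving out 1 line at a time gave 0 to 1 genes lower at day 7, 1 gene higher in shNFIB without the shMLL1 line (Dusp1) and 1 lower (Zbtb16), and 1 lower in shMLL1 without the shNFIB line (Zbtb16). Without a filter, shNFIB had 1 gene higher and 2 lower, shMLL1 had 1 lower, and DESeq2 called 1 higher in shNFIB. At 1.5-fold, 1 gene was lower at day 7 within shNFIB, 2 were lower in shMLL1 at day 0, 5 were higher and 2 lower in shNFIB at day 7, and 4 were higher in shMLL1 at day 7. Scaling by library size alone left 0 genes higher in shNFIB at day 0 and 1 at day 7. Values near 0 changed sign. Dusp1 by day ranged from -0.051 to 0.30 with 1 line left out, below 0 without shControl and without shNFIB (-0.016). Per1 in shNFIB became -0.074 by library size, -0.0055 in DESeq2 and -0.021 without the shMLL1 line. In shMLL1, Per1 became 0.015 by library size and 0.0011 in DESeq2, and Klf9 0.0095 and 0.0100. Over all genes, library size alone moved the median day effect by 0.135 and gave 3287 genes higher and 2116 lower, against 2816 and 2758. The day effect gave 2100 and 1808 calls with no block, and 1004 and 1098 without the shControl line. Calls in shNFIB, 19 higher and 44 lower, became 341 and 347 without a filter, 297 and 318 in DESeq2, and 240 and 284 without the shMLL1 line. Calls in shMLL1, 2 higher and 3 lower, became 236 and 290, 182 and 244, and, without the shNFIB line, 84 and 110. The cause was not tested. The fit had 2 residual degrees of freedom, and levels of Zbtb16 were near 0 at day 0. A line difference that was not called need not be small. That of Zbtb16 in shNFIB was -3.20 on the log2 scale and was not called in the edgeR fit over all 6 libraries with the filter.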

Other observations

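Of 10 close relatives of the 10 genes that were tested, 1 was called higher and 3 lower between days, beside 16.8% and 16.5% of all genes tested. Tsc22d1, a relative of Tsc22d3, rose by a log2 fold change of 1.28 ± 0.29 (edgeR's quasi-likelihood test, adjusted p = 0.0168), whereas Tsc22d2 had -1.28 ± 0.21 (adjusted p = 0.0057). Klf13, a relative of Klf9, had -1.32 ± 0.23 (adjusted p = 0.0070).

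Among mesenchymal markers, Pdgfra was called higher at day 7 (1.81 ± 0.50, adjusted p = 0.0309), and Vim (-1.12 ± 0.30, adjusted p = 0.0291) and Thy1 (-1.01 ± 0.19, adjusted p = 0.0096) were called lower. Thy1 was the one gene of the lists called between lines, at a log2 difference of 2.36 ± 0.24 in shNFIB (adjusted p = 0.0299). Its levels were 298 and 170 CPM in shNFIB at day 0 and day 7, 68.1 and 27.9 in shControl, and 32.4 and 16.9 in shMLL1. Of the blood and endothelial markers, Cd68 was tested and called higher at day 7 (1.80 ± 0.30, adjusted p = 0.0064), while Adgre1 had no counts.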
